A study of Mus musculus with 38 samples.

Results

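The sites described here are SALL4 binding sites shared by the 2 forms of the factor that were delivered to mouse embryonic fibroblasts (MEFs), SALL4-WT and SALL4-delN12. A site was the SALL4-WT CUT&Tag peak at day 6 with a score of at least 100 that overlapped, by at least 1 base, a SALL4-delN12 peak with a score of at least 100. By this rule 19182 of 38773 SALL4-WT peaks of that score (49.5%) were shared, which corresponded to 19066 of 41577 SALL4-delN12 peaks (45.9%). The full lists held 69475 SALL4-WT and 67310 SALL4-delN12 peaks. The remaining peaks of score 100 or more, 19591 for SALL4-WT only and 22511 for SALL4-delN12 only, are used for comparison.

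SALL4 is a zinc finger transcription factor of early embryos, germ cells and pluripotent cells. Its N-terminal stretch, N12, binds the NuRD complex, which slides nucleosomes and removes acetyl groups from histones, and SALL4-delN12 lacks that stretch. ATAC-seq reads chromatin accessibility, CUT&Tag maps where a protein or histone mark sits, and acetylation of histone H3 at lysine 27 (H3K27ac) marks active promoters and enhancers. Primitive endoderm (PrE), the lineage that the study induces, forms the yolk sac endoderm and expresses Gata4, Gata6, Sox17 and Foxa2.

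MEFs were taken from embryos of OG2 mice, which carry an Oct4-GFP reporter, crossed with 129S4/SvJaeJ, and were infected with pMXs retrovirus carrying Sall4-WT or Sall4-delN12 alone, in the medium iCD3. ATAC-seq covered untreated MEFs and days 1, 5, 9 and 11 of each form. No ATAC library of cells infected without SALL4 is among the samples. Between MEFs and the later days, SALL4, infection and the change of medium therefore cannot be told apart. SALL4 and H3K27ac CUT&Tag covered day 6 of each form, and no day 6 culture without SALL4 is used here. RNA-seq covered days 1, 5, 9 and 11. Each condition had 1 sample in the series, and CUT&Tag replicates were merged before peaks were called, per the study's methods. No difference below therefore has a replicate check or a test, and intervals are exact binomial 95% intervals that cover counting error only. In bulk cultures, fewer cells with a peak and a weaker peak in each cell cannot be told apart.

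The 9 ATAC lists held between 78517 peaks (SALL4-delN12 day 11) and 125470 peaks (MEFs). The H3K27ac list held 19841 peaks (34.9 Mb) with SALL4-WT and 45599 peaks (74.4 Mb) with SALL4-delN12. A list's length enters every share of sites given below. Read depth is unknown from peak lists. The exons of Sall4 carried no ATAC peak in MEFs and 2 to 4 peaks in each of the 12 lists from infected cells, which carry the Sall4 retrovirus. One of these peaks is itself among the shared sites (chr2:168754363-168756945, exonic), and whether its signal came from the virus or the chromosome was not tested.

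The following 200-base windows show what the shared sites look like. Each is centred on the highest ATAC peak of the site over all libraries (mm10, sequence from RefSeq GRCm38.p6), lies outside promoters and UTRs, and was taken from a class of ATAC or H3K27ac behaviour described below or from a gene of the fixed lists. Capitals mark matches, on either strand, to letters that a named family binds: TGACTCA for AP-1, AGATAA for the GATA family, TGTTTAC for the FOX family, ACAATG for the SOX family, CATTCC for the TEAD family, GGGCGGG for the KLF and SP families, and the CTCF core, given by name only. A match is a string of letters and not a measured binding event.
Ywhah site, chr5:32950818-32951017, plus strand: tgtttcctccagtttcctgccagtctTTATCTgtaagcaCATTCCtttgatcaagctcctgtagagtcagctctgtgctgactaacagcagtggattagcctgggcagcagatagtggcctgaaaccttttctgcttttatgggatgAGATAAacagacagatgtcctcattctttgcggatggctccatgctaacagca
Runx1 site, chr16:92904041-92904240, plus strand: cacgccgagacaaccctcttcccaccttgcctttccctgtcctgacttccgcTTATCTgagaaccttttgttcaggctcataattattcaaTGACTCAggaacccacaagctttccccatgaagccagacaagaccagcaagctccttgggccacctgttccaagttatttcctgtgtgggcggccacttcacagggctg
Dio2 site, chr12:90781418-90781617, plus strand: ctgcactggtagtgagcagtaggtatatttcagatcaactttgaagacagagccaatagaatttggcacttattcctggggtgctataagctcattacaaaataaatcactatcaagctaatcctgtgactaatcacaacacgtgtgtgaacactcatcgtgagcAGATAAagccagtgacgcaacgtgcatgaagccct
Foxa2 site, chr2:148013478-148013677, plus strand: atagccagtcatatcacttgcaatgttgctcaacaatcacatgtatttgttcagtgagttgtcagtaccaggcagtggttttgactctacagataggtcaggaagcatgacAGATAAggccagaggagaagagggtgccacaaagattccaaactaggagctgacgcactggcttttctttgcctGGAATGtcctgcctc
Nr2f1 site, chr13:78998844-78999043, plus strand: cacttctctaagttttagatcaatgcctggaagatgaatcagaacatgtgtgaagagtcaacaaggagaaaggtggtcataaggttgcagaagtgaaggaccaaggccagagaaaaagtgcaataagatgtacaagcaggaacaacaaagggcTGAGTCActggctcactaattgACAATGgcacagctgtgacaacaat
Fgf10 site, chr13:118571074-118571273, plus strand: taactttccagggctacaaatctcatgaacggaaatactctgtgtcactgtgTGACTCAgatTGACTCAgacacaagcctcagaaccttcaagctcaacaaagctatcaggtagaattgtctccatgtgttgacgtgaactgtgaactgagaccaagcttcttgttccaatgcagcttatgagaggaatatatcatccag
Cep162 site, chr9:87464226-87464425, plus strand: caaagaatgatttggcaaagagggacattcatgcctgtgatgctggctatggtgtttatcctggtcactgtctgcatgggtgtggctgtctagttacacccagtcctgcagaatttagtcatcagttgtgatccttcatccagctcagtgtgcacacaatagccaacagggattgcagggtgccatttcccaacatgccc
Sem1 site, chr6:6496215-6496414, plus strand: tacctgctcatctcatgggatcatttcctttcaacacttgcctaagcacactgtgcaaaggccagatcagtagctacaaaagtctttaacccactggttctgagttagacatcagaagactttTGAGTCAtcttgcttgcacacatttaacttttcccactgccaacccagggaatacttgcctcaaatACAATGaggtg
Dab2 site, chr15:6326010-6326209, plus strand: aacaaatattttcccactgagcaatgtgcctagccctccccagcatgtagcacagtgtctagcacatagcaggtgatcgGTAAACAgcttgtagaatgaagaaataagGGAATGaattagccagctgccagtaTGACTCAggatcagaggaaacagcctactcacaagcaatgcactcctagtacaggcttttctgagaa
Klf4 site, chr4:55541792-55541991, plus strand: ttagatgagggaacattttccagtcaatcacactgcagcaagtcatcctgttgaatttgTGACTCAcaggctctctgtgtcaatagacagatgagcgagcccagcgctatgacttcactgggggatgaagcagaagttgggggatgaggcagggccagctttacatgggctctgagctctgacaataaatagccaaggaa

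The windows are named by the nearest coding gene. The Ywhah site lies in an intron of Depdc5, the Dio2 site in an intron of the noncoding genes 4930544I03Rik and Gm26512, the Foxa2 site in an intron of the noncoding 9030622O22Rik, the Fgf10 site in an intron of 1700003P14Rik, the Sem1 site in an intron of Gm20685 and the Dab2 site in an intron of Dab2. The Runx1, Nr2f1, Cep162 and Klf4 sites are intergenic. AP-1 letters appear in the Runx1, Nr2f1, Fgf10, Sem1, Dab2 and Klf4 windows, in the Fgf10 window at 2 places. GATA letters appear in the Ywhah window at 2 places and once each in the Runx1, Dio2 and Foxa2 windows. The Cep162 window, at the strongest site that had H3K27ac with SALL4-delN12 only, holds none of the marked motifs.

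Most shared sites lay away from promoters. Within 2 kb of a transcription start site (TSS) lay 5216 of 19182 shared sites (27.2%, interval 26.6 to 27.8%). Introns held 37.6%, intergenic sequence 33.6% and exons 1.64%, and 6 sites lay on unplaced scaffolds. The promoter share was 22.2% for sites of SALL4-WT only and 7.24% for sites of SALL4-delN12 only. The median distance from a shared site to the nearest coding TSS was 26.7 kb, against 24.1 kb for SALL4-WT only and 58.8 kb for SALL4-delN12 only. Shared sites were wider, with a median of 1218 bp against 986 and 1062 bp, and the median distance to the next shared site was 25.9 kb.

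The scores that chose the sites are given as a description. The median score was 211 in the SALL4-WT list and 212 in the SALL4-delN12 list, and 9510 sites (49.6%) scored higher with SALL4-delN12. Scores of the same site differed by at least 2-fold at 3851 sites (20.1%). Of the sites called for SALL4-WT only, 31.7% overlapped a SALL4-delN12 peak of lower score, and 25.2% of those of SALL4-delN12 only overlapped a weaker SALL4-WT peak. Across the threshold values were similar: sites with a lower score of 100 to 110 (n = 1997) had an ATAC peak in MEFs in 78.2% and H3K27ac with SALL4-delN12 in 73.7% of cases, and those of 90 to 100 (n = 2256), just outside, in 76.7% and 71%.

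The 10 shared sites with the highest scores in both lists carried an ATAC peak in all 9 libraries, MEFs included. The first was a 6006 bp site at chr17:39842897-39848902 over the promoter of the noncoding gene Gm26917, with SALL4 scores of 1870 and 1433 and an ATAC score of 3100, at which many scores in these lists stop, in each of the 9 libraries. The second, on an unplaced scaffold (scores 986 and 1168), also had an ATAC score of 3100 in each library. Sites in repeated or generally high-signal sequence were not removed, and the part of such sequence in these scores was not tested. The promoters of Ppp2r3d, a phosphatase regulatory subunit gene (chr9:124422434-124426281, scores 1029 and 985), and of Crlf2, a cytokine receptor gene (chr5:109556191-109559667, scores 991 and 940), followed among the placed chromosomes. Among these 10 sites, 9 had H3K27ac with both forms. The exception was the Cep162 site (chr9:87463401-87464970), 208.7 kb upstream of the TSS, with SALL4 scores of 909 and 772 and an H3K27ac score of 473 with SALL4-delN12 and no peak with SALL4-WT.

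Most shared sites were already accessible in fibroblasts that had received no SALL4. In MEFs 86.6% of them (interval 86.2 to 87.1%) carried an ATAC peak, while 67.3% of all 61284 SALL4 sites of score 100 or more did. Sites of SALL4-WT only reached 54.5% and sites of SALL4-delN12 only 62%. With SALL4-WT the share of shared sites over days 1, 5, 9 and 11 was 84.6%, 91.9%, 93% and 89.7%, where all SALL4 sites gave 55.6%, 63.6%, 65.3% and 61.6%. With SALL4-delN12 it was 94.6%, 93.3%, 93.2% and 83.3%, where all SALL4 sites gave 71.6%, 68.9%, 68.4% and 56.2%. The shared sites thus stood above both other sets in each of the 9 libraries.

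**Figure D1:**
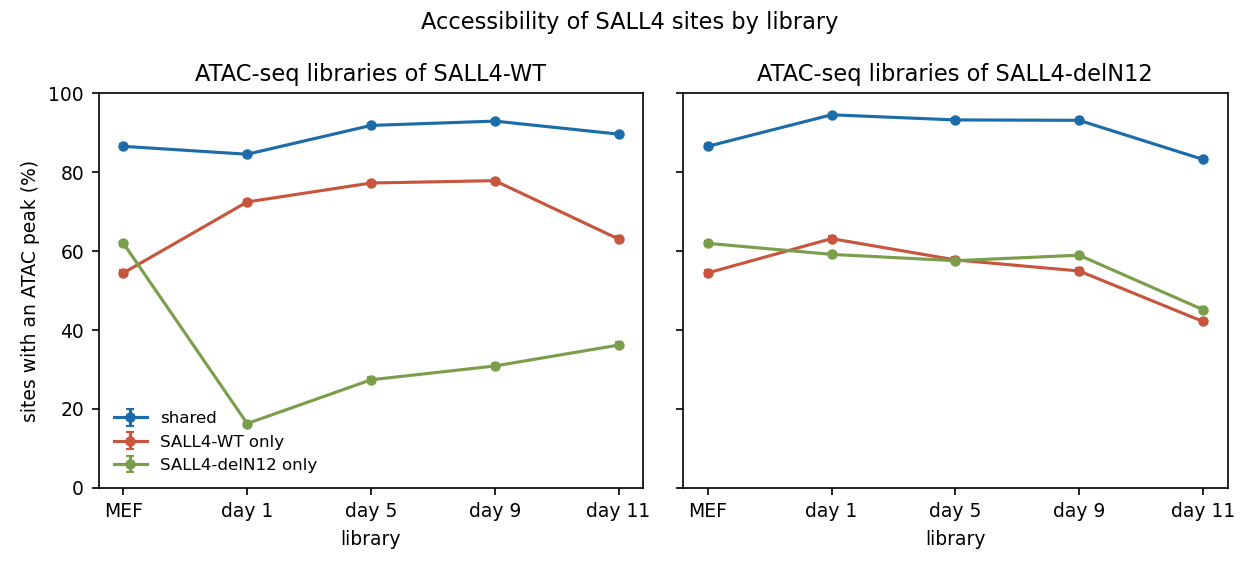
Share of SALL4 sites with an ATAC peak (y axis, percent) in MEFs and at days 1, 5, 9 and 11 (x axis) in the SALL4-WT libraries (left) and SALL4-delN12 libraries (right). Points are single libraries, bars are 95% binomial intervals, mostly smaller than the points, and shared sites lie between 83.3% and 94.6% in every library.

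ATAC peaks at shared sites were also strong ones. The median score of the best peak at a shared site was 564 in MEFs, against 129 for all MEF peaks, which placed it at percentile 86.3 of that library. The best peak is the highest of all that overlap a site, ranked here among single peaks. Wider sites, as the shared ones were, can overlap more peaks, and the part of width was not tested. The best peak had a median of 276 (percentile 72.4) at sites of SALL4-WT only and 207 (percentile 65.1) at sites of SALL4-delN12 only. In the other 8 libraries the median percentile at shared sites was between 78.8 and 84.4. Where the ATAC peak had to cover the centre of the site, the MEF share was 64.3%, against 37.6% for SALL4-WT only and 39.8% for SALL4-delN12 only. With the 78517 highest peaks of each library, the MEF share was 79.5% and the day 11 shares were 87.5% with SALL4-WT and 83.3% with SALL4-delN12, so the order of MEFs and SALL4-delN12 day 11 turned.

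SALL4-WT and SALL4-delN12 differed most at the 2 ends of the time course. At day 1 a peak was present with SALL4-delN12 only at 2350 shared sites (12.3%) and with SALL4-WT only at 420 (2.19%), where 23.2% and 7.24% of all SALL4 sites were. At day 5 the counts were 1049 and 772 (all SALL4 sites 15.6% and 10.3%), and at day 9 they were 876 and 839 (14.3% and 11.2%). At day 11 the order had turned, with 726 sites (3.78%) open with SALL4-delN12 only and 1961 (10.2%) with SALL4-WT only, where 9.03% and 14.4% of all SALL4 sites were. The order turned over all SALL4 sites too, a pool that includes the shared ones, but not within either other set. Among sites of SALL4-WT only, 18.6% at day 1 and 24.4% at day 11 had a peak with SALL4-WT only. With SALL4-delN12 only these shares were 9.36% and 3.54%. Among sites of SALL4-delN12 only, 1.63% and 9.31% had a peak with SALL4-WT only, and 44.6% and 18.3% with SALL4-delN12 only. The day 11 list with SALL4-delN12 is the shortest of the 9, but from day 1 to day 11 the SALL4-WT share was higher and the SALL4-delN12 share lower also with lists of equal size, at 83.2% and 87.5% with SALL4-WT and 92.5% and 83.3% with SALL4-delN12.

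The same crossing was wider at the 2561 shared sites that had no ATAC peak in MEFs. Over days 1, 5, 9 and 11, with SALL4-WT, 58.3%, 77.8%, 79.9% and 70.9% of them had a peak. With SALL4-delN12 these shares were 80.7%, 80.5%, 78.2% and 54%. At the 16621 sites already open in MEFs, the SALL4-WT share went from 88.6% at day 1 to 92.6% at day 11 and the SALL4-delN12 share from 96.8% to 87.8%. Among sites closed in MEFs, those of SALL4-WT only were lower at day 11 than at day 1 with both forms (55.2% and 40.1% with SALL4-WT, 40.6% and 16% with SALL4-delN12), and those of SALL4-delN12 only were higher with SALL4-WT (6.14% and 23.2%) and lower with SALL4-delN12 (43.4% and 31.5%).

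By their whole course, 12538 shared sites (65.4%, interval 64.7 to 66%) had a peak in all 9 ATAC libraries, against 28.7% of sites of SALL4-WT only and 7.74% of sites of SALL4-delN12 only. Only 62 shared sites (0.323%) had none, against 5.79% and 10.2%. Sites with a peak in MEFs that was missing at day 11 numbered 1335 with SALL4-delN12 only, 531 with SALL4-WT only and 691 with both. Sites without a peak in MEFs that had one at day 11 numbered 1189 with both, 626 with SALL4-WT only and 195 with SALL4-delN12 only, and 489 had a peak between days 1 and 9 only. Promoters made up 37.9% of the sites open throughout and 5.5 to 8.66% of every other class.

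**Figure D2:**
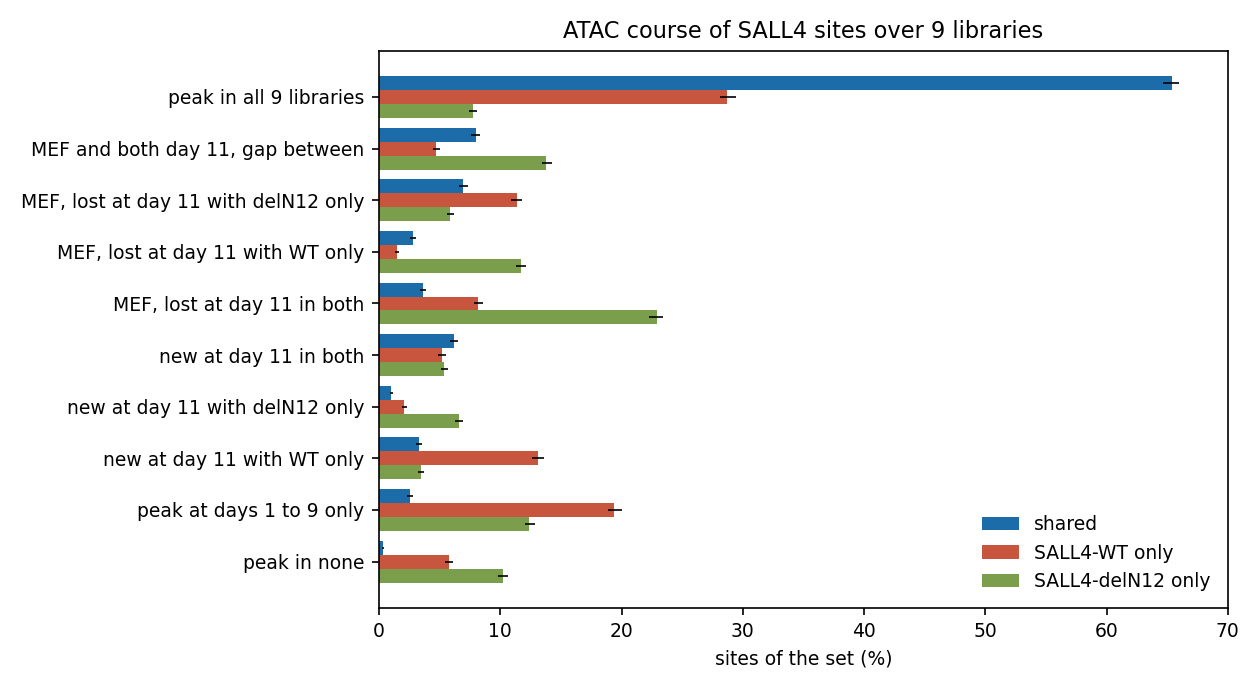
Share of each set of SALL4 sites (x axis, percent, with 95% binomial intervals) that falls into each class of ATAC course (y axis), from peaks in 9 libraries. The shared sites hold 65.4% in the first class, and the sites of SALL4-delN12 only hold 22.9% in the class with a MEF peak missing at day 11 in both forms.

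Single sites show these courses. The Ywhah site (chr5:32949812-32951395), 68.2 kb upstream of Ywhah, a 14-3-3 adaptor gene, had no ATAC peak in MEFs, scores of 112, 407, 228 and 270 at days 1, 5, 9 and 11 with SALL4-WT, and 175, 191, 317 and 246 with SALL4-delN12. It carried SALL4 scores of 542 and 546 and was open in every infected library. The Runx1 site (chr16:92903303-92904815), 77.9 kb upstream of Runx1, which encodes a haematopoietic and mesenchymal transcription factor, scored 64.4 in MEFs, 286, 0, 133 and 0 with SALL4-WT, and 600, 257, 488 and 417 with SALL4-delN12. This was the opposite of the Dio2 site (chr12:90780860-90782480), 43.2 kb upstream of the thyroid hormone deiodinase gene Dio2, at 159 in MEFs, 859, 498, 475 and 164 with SALL4-WT and 370, 242, 246 and 0 with SALL4-delN12.

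The shared site nearest to Foxa2, which encodes a pioneer factor of endoderm, was the strongest of the sites without a MEF peak that were open at day 11 with SALL4-delN12 only. This site (chr2:148012891-148014124), 32.4 kb from the Foxa2 TSS, had no ATAC peak in MEFs, scores of 69.9, 132, 141 and 0 with SALL4-WT and 61.3, 179, 132 and 304 with SALL4-delN12, and no H3K27ac peak with either form at day 6. Foxa2 RNA was 0.0542, 0.113, 0.133 and 0.462 FPKM at days 1, 5, 9 and 11 with SALL4-WT and 0.143, 0.046, 2.59 and 7.68 FPKM with SALL4-delN12. The library with the highest RNA was thus also the one with the highest ATAC score at the site, in 1 library of each kind.

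The 2 forms differed more in H3K27ac than in accessibility. With SALL4-WT 8654 shared sites (45.1%, interval 44.4 to 45.8%) carried an H3K27ac peak, and with SALL4-delN12 85.2% (interval 84.7 to 85.7%) did, while 25% and 54.1% of all SALL4 sites of score 100 or more did so. Both forms had it at 8500 sites (44.3%), SALL4-delN12 only at 7843 (40.9%, against 31% of all SALL4 sites), SALL4-WT only at 154 (0.803%) and neither at 2685 (14%). The H3K27ac list with SALL4-delN12 was the longer one. With the 19841 highest peaks of each list the shares were 45.1% with SALL4-WT and 57.7% with SALL4-delN12, and 18.2% of the shared sites had a peak with SALL4-delN12 only and 5.68% with SALL4-WT only. The direction therefore held with lists of equal size, with a smaller difference.

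The difference was larger at distal sites. At the 5216 promoter sites H3K27ac was present with SALL4-WT in 84.4% and with SALL4-delN12 in 95.9%. At the 13966 distal sites it was present in 30.5% and 81.2%, and 7193 of these sites (51.5%) had it with SALL4-delN12 only. With lists of equal size the distal shares were 30.5% and 47.1%, and the promoter shares 84.4% and 86%. Distal sites of SALL4-WT only had H3K27ac in 19.1% with SALL4-WT and 29.7% with SALL4-delN12, and distal sites of SALL4-delN12 only in 1.32% and 37.4%. With lists of equal size the distal sites of SALL4-WT only turned, to 19.1% with SALL4-WT and 6.39% with SALL4-delN12, while the shared sites did not.

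**Figure D3:**
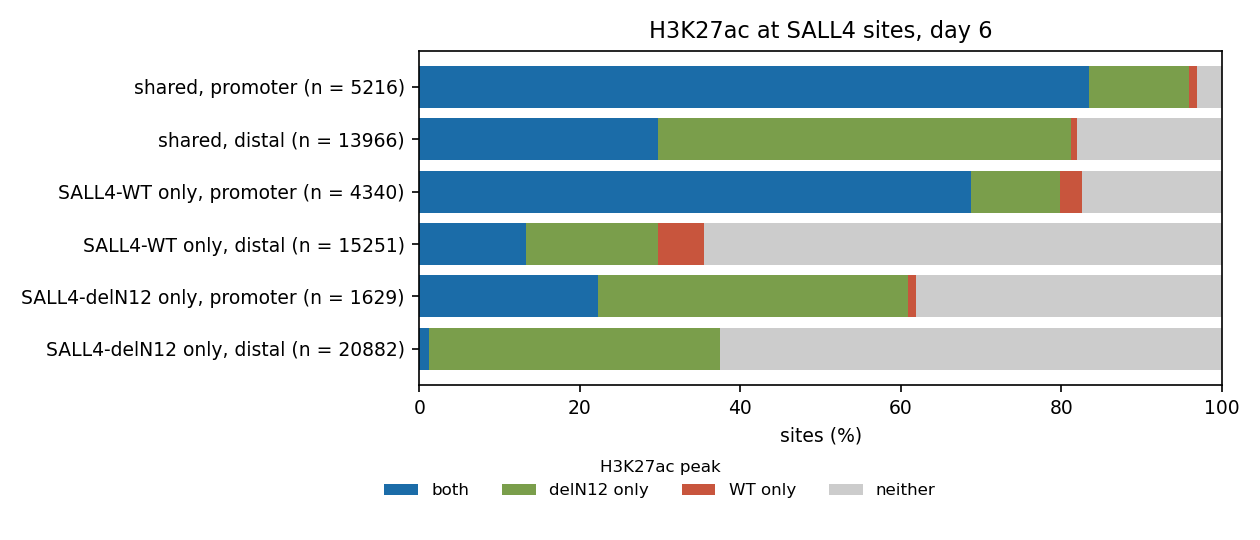
Share of sites (x axis, percent) with an H3K27ac peak in both forms, in SALL4-delN12 only, in SALL4-WT only or in neither, for promoter and distal sites of each set (rows, with the number of sites). At distal shared sites the peak was found with SALL4-delN12 only in 51.5% and with both forms in 29.7%.

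The acetylated shared sites were also the more accessible ones. Sites acetylated with both forms had an ATAC peak in MEFs in 95.7%, those with SALL4-delN12 only in 83.7% and those with neither in 66.7%. At day 11 the SALL4-delN12 shares of these classes were 96%, 79.7% and 53.4%. Sites open in all 9 libraries had H3K27ac in 61.9% with SALL4-WT and 94.1% with SALL4-delN12, and sites open at days 1 to 9 only in 4.7% and 41.7%. The sites acetylated with both forms were also wider, with a median of 1526 bp against 1058 bp with SALL4-delN12 only and 894 bp with neither. The 154 sites acetylated with SALL4-WT only were wider still, with a median of 2139 bp. Within SALL4-WT scores of 100 to 150, where widths were closer (924 bp shared, 889 bp SALL4-WT only), H3K27ac with SALL4-delN12 was found at 74.9% of shared sites and 36.1% of sites of SALL4-WT only, and the ATAC peak in MEFs at 79.8% and 50.8%. H3K27ac with SALL4-WT was at 21.9% and 23.5% in the same score range, so the shared sites did not stand higher there. At SALL4-WT scores of 150 to 200, 200 to 300 and 300 or more it was at 36.2%, 51.2% and 69.6% of shared sites. Sites of SALL4-WT only had it in 34.1%, 42.5% and 49.9%.

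The strongest sites without H3K27ac in either form were in introns. The Plppr1 site (chr4:49196889-49198412) had SALL4 scores of 501 and 622 and an ATAC peak in all 9 libraries, and the Sem1 site (chr6:6495930-6497500) had SALL4 scores of 669 and 458 and no ATAC peak in MEFs. Among the 154 sites acetylated with SALL4-WT only, the strongest covered the promoter of Dapk3, a kinase gene (chr10:81182013-81184073), with an H3K27ac score of 64.3 with SALL4-WT.

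The letters of AP-1, the dimer of FOS and JUN proteins that is prominent at fibroblast enhancers, were the most frequent of the motif letters searched at shared sites. TGACTCA was found, on either strand, in 6018 of 19114 windows of 200 bases (31.5%, interval 30.8 to 32.1%), against 21.5% of windows centred on all 125454 MEF ATAC peaks on placed chromosomes and 3.66% of 32851 RefSeq promoters cut to 200 bases. Sites of SALL4-WT only had it in 34.2% and sites of SALL4-delN12 only in 32%, so it did not set the shared sites apart from the other SALL4 sites. Among shared sites it was found in 39.9% of distal and 8.94% of promoter windows, and in 35% of distal sites acetylated with both forms, 42% with SALL4-delN12 only and 42.2% with neither. The class with a MEF peak missing at day 11 in both forms had the highest AP-1 share of the 9 courses, 47.9% of 691 windows.

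The GATA letters were found in 8.62% of shared windows and 7.75% of MEF ATAC windows, and the SOX letters in 11.5% and 9.26%. Sites of SALL4-delN12 only had them in 11.7% and 15.5% of windows. Among sites without a MEF peak, those open at day 11 with SALL4-delN12 only had GATA letters in 21% and SOX letters in 20% of 195 windows, those open with SALL4-WT only in 13% and 15.4% of 625 windows, and those open with both in 13.5% and 18.4% of 1189 windows. Sites open at days 1 to 9 only had them in 14.1% and 21.7% of 489 windows, the highest SOX share of the courses. Sites with a MEF peak that was missing at day 11 with SALL4-WT only had them in 16.4% and 18.1% of 531 windows. KLF and SP letters were found in 30.6% of promoter and 2.54% of distal windows, and in 22.1% of all RefSeq promoters. CTCF letters were found in 35 windows (0.183%), against 1.43% of MEF ATAC windows. AATATT, an AT-rich string of the kind SALL4 zinc fingers prefer, was found in 2.84% of shared windows, 1.14% of windows of SALL4-WT only, 7.82% of windows of SALL4-delN12 only and 5.08% of MEF ATAC windows. In the same sequence of sets the median GC content of the windows was 49.5%, 52%, 44% and 49%, so the AATATT share was higher in each set of lower GC content, and the part of base composition in these shares was not tested.

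**Figure D4:**
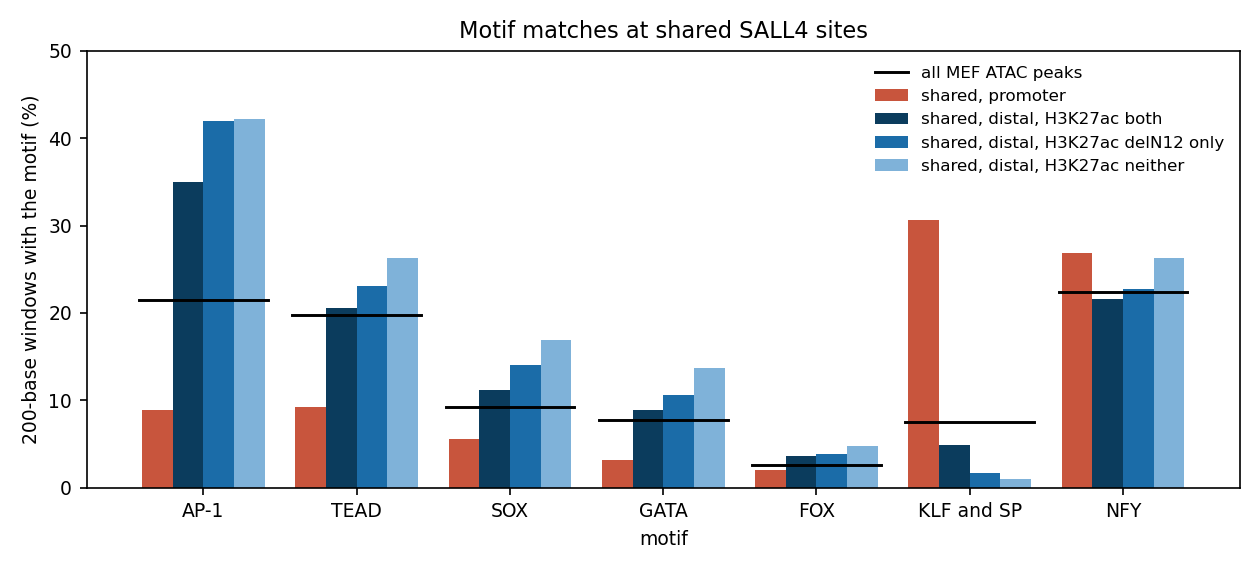
Share of 200-base windows (y axis, percent) that hold the letters of each motif (x axis) at shared sites in promoters and at distal shared sites of 3 H3K27ac classes (bars), with the share in all MEF ATAC peaks as black lines. AP-1 letters reach 42.2% at distal sites without H3K27ac, and KLF and SP letters 30.6% at promoters.

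A shared site lay within 2 kb of a TSS of 6392 of 32047 annotated genes (19.9%). Of these genes 4693 had an FPKM of at least 1 in one of the 8 RNA libraries, among 13177 genes in all. The median difference between SALL4-delN12 and SALL4-WT, on the log2(FPKM + 1) scale, over days 1, 5, 9 and 11 was -0.02, -0.00, 0.02 and -0.03, and for all genes -0.02, -0.01, 0.02 and 0.00. At day 5, 68 genes (1.45%) were higher by at least 1 on this scale with SALL4-delN12 and 121 (2.58%) lower, against 4.13% and 4.42% of all genes. At day 9 the shares were 1.98% and 3.62% against 5.4% and 5.25%, and at day 11 2.66% and 3.92% against 6.04% and 5.82%. The shares were below those of all genes in both directions on these 3 days, a difference that has no test. Their median level at day 5 with SALL4-WT was 9.06 FPKM, against 6.97 FPKM for all genes, and the part of expression level in these counts was not tested.

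The 244 genes whose shared promoter site was acetylated with SALL4-delN12 only had median differences near those of all genes and larger shares at or past a log2 difference of 1, a 2-fold change on that scale. The median difference was -0.01 at day 5 and -0.02 at day 11, with 18 genes (7.38%) higher and 19 (7.79%) lower by at least 1 at day 5, against 4.13% and 4.42% of all genes. At day 11, 19 genes (7.79%) were higher and 22 (9.02%) lower, against 6.04% and 5.82%. Their median level with SALL4-WT at day 5 was 4.43 FPKM. For the 4331 genes with acetylation in both forms the medians were -0.00 and -0.04.

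By the naming rule, the genes with a shared promoter site that stood furthest above SALL4-WT with SALL4-delN12 included keratin, junction and metabolic genes. Krt1, an epidermal keratin, was at 0, 0.273, 0.924 and 0.847 FPKM at days 1, 5, 9 and 11 with SALL4-WT and at 3.69, 43.7, 13.5 and 7.35 FPKM with SALL4-delN12. Its promoter site (chr15:101852103-101853223), upstream of the gene and not covering the TSS, had no ATAC peak in MEFs and H3K27ac with SALL4-delN12 only. Krt79, another keratin gene, was at 0.223 FPKM with SALL4-WT and 16.3 FPKM with SALL4-delN12 at day 5. Cyp27a1, a sterol hydroxylase of bile acid synthesis, was at 1.52 and 17.1 FPKM at day 5 and at 1.9 and 32.8 FPKM at day 9. Cldn6, a tight junction protein gene of embryonic epithelia, was at 0.253, 0.79, 1.35 and 2.42 FPKM with SALL4-WT and at 0.445, 7.01, 12.9 and 75.7 FPKM with SALL4-delN12, a difference of 4.49 on the log2 scale at day 11. The site that overlapped its promoter window (chr17:23674308-23677966) ended upstream of the gene start at 23679249 and did not cover the TSS. This site was open in all 9 libraries and acetylated with both forms. Arsi, a sulfatase gene, was 2.22 higher at day 11.

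By the same rule 6 genes stood furthest below SALL4-WT. Fn1, which encodes fibronectin, was at 467, 756, 895 and 958 FPKM with SALL4-WT and at 218, 87.7, 110 and 87.4 FPKM with SALL4-delN12, although its promoter site (chr1:71652431-71654096) was open in all 9 libraries and acetylated with both forms. Postn, which encodes the matrix protein periostin, was at 124 FPKM with SALL4-WT and 11.7 FPKM with SALL4-delN12 at day 5, a difference of -3.31. Serping1, a complement inhibitor gene, differed by -3.14 at day 5. The epidermal growth factor family gene Ereg and the chemokine gene Cxcl1 differed by -3.73 and -2.99 at day 9, and the collagen gene Col5a3 by -3.31 at day 11. At these 6 genes the promoter site was acetylated with both forms, except at Serping1 and Col5a3, where it was acetylated with SALL4-delN12 only.

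Of 20 fibroblast genes, 8 had a shared promoter site and 16 had a shared site in the promoter or were the coding gene nearest to a distal one within 50 kb. A shared promoter site was present at 23.3% of all coding genes and 35.6% of all genes tested for RNA, and 38.5% of all coding genes had a shared site in the promoter or were nearest to a distal one. Of the 8, at day 5, 4 were lower and 1 higher by at least 1 with SALL4-delN12, where 4.42% and 4.13% of all genes were, and the median difference was -1.05, against -0.01 over all genes. Besides Postn, the lower ones were Snai2 (84.7 and 18.6 FPKM with SALL4-WT and SALL4-delN12), Twist1 (118 and 51.6 FPKM), both transcription factors of mesenchyme, and the microfibril gene Fbn1 (38.6 and 9.21 FPKM). Col1a1, the collagen I gene, was the higher one, at 693 and 1424 FPKM, and its promoter site (chr11:94935890-94937473) was acetylated with SALL4-WT only. Among the fibroblast genes without a shared promoter site, those lower by at least 1 at day 5 were Lox (-3.03), Prrx1 (-1.60) and Col3a1 (-1.22). Those higher by at least 1 were Tagln (1.92), which was not among the 16, and Tgfbi (1.25). Prrx1, a mesenchymal homeobox gene with 3 distal shared sites, shows mixed courses at 1 gene and was lower with SALL4-delN12, while Tgfbi, a matrix protein gene with 4 distal shared sites, was higher at each day, by 1.25 at day 5 and 2.09 at day 9. The site 25.2 kb upstream had ATAC scores of 151 in MEFs, 0 in all 4 SALL4-WT libraries and 227, 120, 113 and 86.2 with SALL4-delN12, while Prrx1 RNA was 28.1, 41.1, 43.9 and 47.3 FPKM with SALL4-WT and 10.5, 12.9, 10.3 and 12.6 FPKM with SALL4-delN12.

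Of 12 PrE genes, 3 had a shared promoter site, close to the 23.3% of all coding genes. These were Gata6, Dab2 and Klf4, and 2 more, Foxa2 and Chst15, were the nearest coding gene within 50 kb of a distal shared site, one outside all promoter windows. Eva1a held a shared site within the gene that is not counted as distal because it lies in an annotated promoter window. Gata4, Sox17, Lama1, Pth1r, Cited1 and Pitx1 had none of these. At day 11 the RNA of these 6 genes without a shared site was higher with SALL4-delN12. Gata4 was at 1.51 FPKM with SALL4-WT and 29.3 FPKM with SALL4-delN12. The differences were 3.81 for Sox17, 3.55 for Lama1, 3.27 for Pth1r, 4.88 for Cited1 and 2.97 for Pitx1, all larger than that of any of the 3 genes with a shared promoter site at that day. All 3 promoter sites were open in all 9 libraries and acetylated with both forms. Gata6 RNA was 5.61, 4.26, 4.23 and 5.36 FPKM with SALL4-WT and 4.09, 2.52, 3.25 and 7.49 FPKM with SALL4-delN12. Dab2, an endocytic adaptor of extraembryonic endoderm, was at 11, 7.93, 11.6 and 10 FPKM with SALL4-WT and at 6.32, 6.8, 10.7 and 22.7 FPKM with SALL4-delN12, higher only at day 11. Klf4, which encodes a zinc finger factor, was lower with SALL4-delN12 at each day, with a difference of -1.99 at day 5 (12.8 and 2.45 FPKM) and of -0.17 at day 11 (19.9 and 17.5 FPKM). The 2 distal sites in Dab2 (chr15:6325692-6326463 and chr15:6410976-6411960) had H3K27ac with SALL4-delN12 only, at scores of 214 and 216.

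Genes of the parietal and visceral endoderm, the 2 yolk sac endoderm lineages, included 1 of 18 with a shared promoter site (Lamc1, a laminin chain gene) and 10 of 18 that were nearest to a distal one, where 23.3% of coding genes had a shared promoter site and 22.5% were nearest to a distal one within 50 kb. Members with such sites stood on both sides at day 5. The collagen IV gene Col4a1 differed by -1.80, Lamc1 by -0.46 and the laminin gene Lamb1 by -0.41. None of these 3 was lower at day 11, when they differed by 0.07, 0.44 and 0.69, and Lamc1 and Lamb1 were above SALL4-WT from day 9 (0.19 and 0.30). Krt8 and Krt18, keratins of simple epithelia, were at 11.3 and 82 FPKM with SALL4-WT and at 166 and 441 FPKM with SALL4-delN12 at day 5. The Krt8 site (chr15:101983338-101984946) had H3K27ac with SALL4-delN12 only. Apoa1, which encodes an apolipoprotein of yolk sac and liver, was the nearest coding gene of 3 shared sites, all in introns of Sik3 and open in all 9 libraries. Its RNA was 0.065, 0.676, 0 and 0.175 FPKM with SALL4-WT and 0.343, 11.6, 14.9 and 11.8 FPKM with SALL4-delN12.

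Of 22 pluripotency genes, 3 had a shared promoter site, Dppa2, Klf2 and Klf5, a smaller share than the 23.3% of all coding genes. Of 14 genes for NuRD subunits 6 had one, Hdac2, Mbd3, Gatad2a, Gatad2b, Rbbp4 and Rbbp7, all acetylated with both forms, as were the sites of 4331 of the 4693 tested genes with a shared promoter site. Against 35.6% of all tested genes the count of 6 does not set the list apart. Mbd3, for example, was at 139, 92.8, 88.1 and 74.2 FPKM with SALL4-WT and at 120, 81.6, 93.4 and 86.4 FPKM with SALL4-delN12. Of 10 AP-1 genes 2, Fosl1 and Atf3, had one, near the 23.3% of all coding genes. Of the same 10, 6 were nearest to a distal shared site within 50 kb, against 22.5% of all coding genes. A shared site of either kind was present for 7, against 38.5%. Atf3 was higher with SALL4-delN12 at each day (3.61, 2.26, 1.81 and 2.85 against 8.45, 5.84, 6.53 and 13.3 FPKM). Fosl1 went the other way at the later days, with differences of -0.84 at day 9 and -0.61 at day 11.

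The more distal shared sites a gene was nearest to, the lower its median RNA stood with SALL4-delN12 relative to SALL4-WT at day 11. Among coding genes tested, the 8958 with no distal shared site within 50 kb had a median difference of 0.04 at day 11, the 2433 with 1 site -0.07, the 801 with 2 sites -0.09, the 391 with 3 or 4 sites -0.29 and the 67 with 5 or more sites -0.44. In the last group 55 of 67 genes (82.1%) were lower at day 11, against 46.3% of genes without a site and 65.5% of 955 genes of like length described next. Such genes are long, with a median of 195 kb against 17.9 kb. The 955 genes with under 5 sites and a length between the quartiles of the group with 5 or more had a median of -0.21 at day 11 and -0.05 at day 5, when the group with 5 or more sites was at -0.35. Gene length thus moved with the number of sites, and its part in the result beyond these values was not tested.

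**Figure D5:**
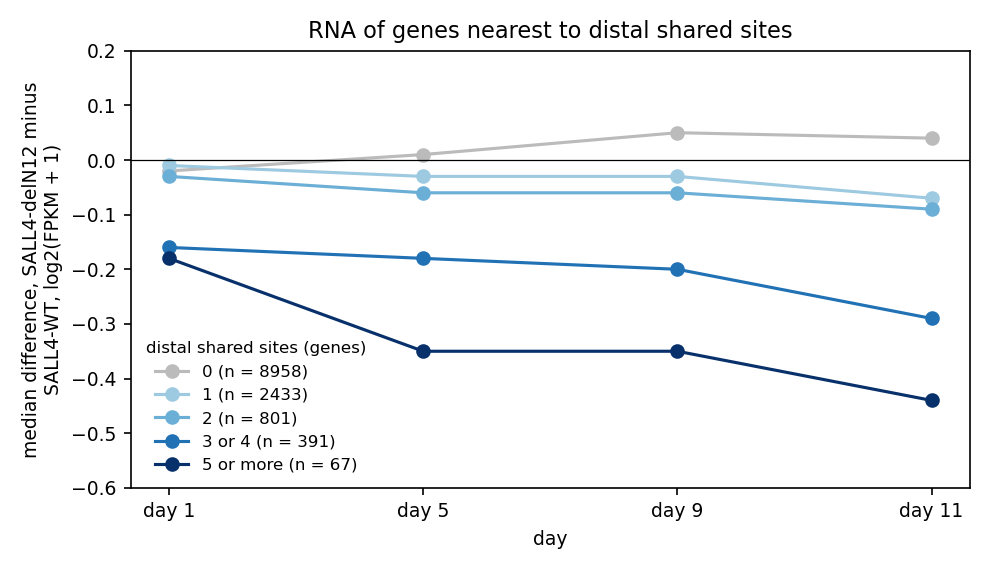
Median difference in RNA between SALL4-delN12 and SALL4-WT (y axis, log2(FPKM + 1)) at days 1, 5, 9 and 11 (x axis) for coding genes grouped by the number of distal shared sites to which they are the nearest coding gene within 50 kb. Points are medians over genes in 1 library of each form, and the group with 5 or more sites lies at -0.18, -0.35, -0.35 and -0.44.

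The genes with the most such sites were Foxp1, a forkhead repressor gene, with 10, and Pde4d, Psd3 and Tead1 with 9 each. Tead1, whose product binds DNA for the Hippo pathway, was at 16.4, 19, 17.1 and 19.6 FPKM with SALL4-WT and at 12.6, 12.8, 12.5 and 12.5 FPKM with SALL4-delN12, lower at each day. Foxp1 was at 3.82, 2.46, 2.05 and 2.28 FPKM with SALL4-WT and at 3.01, 1.47, 1.23 and 1.56 FPKM with SALL4-delN12. Abr, a GTPase regulator gene with 6 sites, went the other way, at 13.1, 9.61, 11.4 and 10.7 FPKM with SALL4-WT and 22.4, 23.6, 18.4 and 13.3 FPKM with SALL4-delN12.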

How the data were processed

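ATAC-seq, RNA-seq, and SALL4 and H3K27ac CUT&Tag of MEFs with SALL4-WT or SALL4-delN12 were analysed, 1 sample per condition. The authors trimmed reads (Trim Galore 0.6.4), aligned ATAC and CUT&Tag reads to mm10 (Bowtie2 2.4.5), filtered them (SAMtools 1.16.1) and called peaks with MACS 1.4.2, per the labels and the study's methods. The score of each peak, as deposited by the authors, is -10 log10 of its p-value, with a minimum of 50. FPKM values were made by the authors with HISAT2 2.2.1 and StringTie 2.2.1.

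From these, overlaps of at least 1 base were computed (numpy 2.4.6, pandas 2.3.3), with code tested on simulated intervals. Promoters are 2 kb to each side of a TSS of coding and long noncoding genes (GENCODE vM21, GRCm38, the build of mm10), and nearest genes are coding genes. A promoter site overlaps such a window and need not cover the TSS. Motif letters were searched, on both strands, in 200 bases centred on the highest ATAC peak of each site over the 9 libraries (pysam 0.24.0). No peak lay beyond a GRCm38 chromosome end. A distal site is assigned to its nearest coding gene within 50 kb. RNA was compared as log2(FPKM + 1) where 1 or more of the 8 libraries reached an FPKM of 1. Intervals are exact binomial (scipy 1.17.1). The samples of other experiments in the series were not used.

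Genes were named by rule: the 10 sites highest by the lower of both scores, the 2 strongest sites of each ATAC and H3K27ac class, listed genes with a shared promoter site, and the 3 largest differences each way at days 5, 9 and 11 among genes with a shared promoter site and an FPKM of at least 5. Prrx1, Tgfbi, Lox, Col3a1, Tagln, Krt8, Krt18, Apoa1, Col4a1, Lamb1, Gata4, Sox17, Lama1, Pth1r, Cited1, Pitx1, Smad7, Id1, Id2, Id3, Abr and the genes with the most distal sites were chosen after their values were seen. The members, lists and motifs were chosen with earlier results of these data known. Alternatives were other score thresholds (50 and 200), overlap of the larger part of both peaks, the SALL4-delN12 peak as the site, overlap at the site centre, ATAC and H3K27ac peaks of score 100 or more, distal sites only, a 1 kb promoter, a pseudocount of 0.1 and no FPKM filter. Lists of equal size, the grouping by number of sites and the genes of like length were added after seeing the data.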

Additional observations from a re-analysis of the deposited data

Results flagged for a closer look

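The ATAC share of shared sites was 5.18 percentage points higher at day 11 than at day 1 with SALL4-WT, and the difference was -11.3 points with SALL4-delN12. Over all 61284 SALL4 sites of score 100 or more, a pool that includes the shared sites, these differences were 5.96 and -15.4 points. With SALL4-WT and SALL4-delN12, sites of SALL4-WT only differed by -9.36 and -21 points, and sites of SALL4-delN12 only by 20 and -14 points. Sites of SALL4-WT only thus went the other way from the shared sites with SALL4-WT. At shared sites without an ATAC peak in MEFs these differences were 12.6 and -26.6 points. At the shared sites the 2 forms moved in opposite directions, in 1 library per time point, and the difference between them was not tested. From MEFs to day 11 the differences were 3.09 points with SALL4-WT and -3.35 points with SALL4-delN12, a contrast that turned for SALL4-delN12 with lists of equal size and for SALL4-WT at site centres (64.3% and 63.1%) and with ATAC peaks of score 100 or more (78.9% and 76.4%), and it too was not tested.

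The shared site on a Sall4 exon had no ATAC peak in MEFs, which were not infected, and strong ones in the infected cells. It is 1 of the 19182 shared sites and is counted in the shares above. The ATAC scores at days 1, 5, 9 and 11 were 2962, 1746, 1010 and 775 with SALL4-WT and 3100, 1427, 1340 and 742 with SALL4-delN12. They were lower at each later day in both forms.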

How the results depend on the processing

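The replicate numbers pair no samples, since each condition has 1 sample. A fit of the RNA or ATAC values with day as a block, which would take the 4 time points as replicates, was not run. The number of shared sites was 35473 with a score of at least 50 and 6475 with at least 200, and it stayed within 1.5 times 19182 with the other 2 definitions. The promoter share was 24.7% with a score of at least 50, 28% with an overlap of the larger part of both peaks and 25.3% with a 1 kb promoter. For MEFs, SALL4-WT day 11 and SALL4-delN12 day 11, the ATAC shares were 79.1%, 79.8% and 72.3% with a score of at least 50, 92.3%, 96.2% and 92.2% with at least 200, 64.3%, 63.1% and 54.3% at the site centre, 78.9%, 76.4% and 68.2% with ATAC peaks of score 100 or more, and 82.9%, 86.8% and 78.5% at distal sites. With the SALL4-delN12 peak as the site the SALL4-delN12 day 11 share was 84%. With lists of equal size, added after seeing the data, the MEF and SALL4-WT day 11 shares were 79.5% and 87.5%. SALL4-WT day 11 stood above SALL4-delN12 day 11 in each of these, while the order of MEFs and either day 11 library turned in some. The H3K27ac shares with SALL4-WT and SALL4-delN12 were 35.6% and 73.9% with a score of at least 50, 56.4% and 93.5% with at least 200, 43.5% and 83.9% at the site centre, 30.2% and 73.2% with H3K27ac peaks of score 100 or more, and 30.5% and 81.2% at distal sites. With an overlap of the larger part of both peaks the SALL4-WT share was 46.4%, and with lists of equal size the SALL4-delN12 share was 57.7%. The median RNA difference at day 11 was -0.02 with a score of at least 50, -0.06 with at least 200 and -0.01 without an FPKM filter, and at day 5 it was -0.02 with a score of at least 200. The causes of these shifts were not tested.

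Peak lists carry no read depth, so a missing peak is not a closed site. Replicates of CUT&Tag were merged before peaks were called, neighbouring sites share peaks and domains, and no day 6 culture without SALL4 is among the samples used. Intervals therefore cover counting error only and understate the error between cultures.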

Other observations

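Among 20 ribosomal protein genes 6 had a shared promoter site and 9 a site with SALL4-WT only, where 23.3% of all coding genes, and 35.6% of all genes tested for RNA, had a shared promoter site and 17.7% of coding genes one with SALL4-WT only. The median difference of those 6 between SALL4-delN12 and SALL4-WT, on the log2(FPKM + 1) scale, was -0.05 at day 5 and 0.48 at day 11.

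Of 6 BMP target genes, Smad6 and Bambi, both inhibitors of the pathway, had a shared promoter site, against 23.3% of all coding genes. Smad6 was at 20.1, 22, 22.7 and 16.7 FPKM at days 1, 5, 9 and 11 with SALL4-WT and at 6.02, 7.36, 8.78 and 16.4 FPKM with SALL4-delN12, lower until day 9 and near equal at day 11. Bambi was higher with SALL4-delN12, by 1.42, 0.75, 0.14 and 0.12 on that scale over the 4 days. Smad7, another inhibitor of the pathway and the nearest coding gene of 4 distal shared sites, differed by 0.54 at day 5 and 0.66 at day 11. Id2 and Id3, which encode inhibitors of helix-loop-helix factors, were the nearest coding genes of 1 and 2 distal shared sites and differed by -1.36 and -1.14 at day 5 on the same scale. Id1, the last of the 6, had no shared promoter site, was nearest to no distal one, and differed by -1.35 at day 5. Looked at from the H3K27ac lists, a shared site was present in 43.7% of peaks with SALL4-WT and 35.9% of peaks with SALL4-delN12.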
